A study of Homo sapiens
Mus musculus and Mus musculus and Homo sapiens with 3 samples.

Results

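The genes described here are ID1, ID2, ID3, ID4, SMAD6, SMAD7, BMP7 and BAMBI, 8 genes of bone morphogenetic protein (BMP) signalling that were chosen by name. They were 8 of 32735 and 56832 gene symbols in the tables of human replicates 1 and 2, and 8 of 27998 and 54087 in those of mouse replicates 1 and 2. All 8 were found in every table, and all 8 passed the filter on low counts, which left 12464 of the 15472 symbols shared by the 4 tables for testing.

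The cells came from human and mouse pluripotent stem cells that were differentiated towards motor neurons as embryoid bodies, and their transcripts were counted by droplet-based single-cell RNA sequencing of transcript ends. Human replicate 1 was the induced pluripotent line NCRM1 and mouse replicate 1 was C57BL/6 embryonic stem cells, and these were sequenced as 1 mixed library that was deposited apart by species. Human replicate 2 was the line RUES1, labelled as an induced pluripotent line, and mouse replicate 2 was again C57BL/6 embryonic stem cells, each in a library of its own. All groups shared a lentiviral GFP transgene under the CAGGS promoter with a short barcode, dissociation with papain and DNase I, and a sort for GFP, and none was without the transgene. Mouse cultures were sampled every 24 h and human cultures every 48 h, but the day of a cell is not in the files used here. A difference between cell classes or between species therefore cannot be told apart from a difference in the days sampled. The human libraries were of different lines, and separate mouse cultures are not stated in the labels. Each p-value thus measures only spread among sums of these libraries, estimated jointly over all classes and both species. For changes between classes the fit had a term for each library part, so that spread is what was left after differences between parts. It was not measured on the parts of 1 species alone.

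BMP ligands such as BMP7 bind serine/threonine kinase receptors that phosphorylate SMAD1, SMAD5 and SMAD9, which enter the nucleus with SMAD4. The ID genes are direct targets of these SMADs in many cells. ID proteins have a helix-loop-helix domain but no basic region that binds DNA, so they take up E proteins such as TCF3 and keep them from pairing with neurogenic factors such as NEUROG2 and OLIG2. SMAD6 and SMAD7 are inhibitory SMADs and BAMBI is a receptor without a kinase domain, and each is induced by the pathway that it dampens. In the neural tube BMP signals come from the dorsal side, whereas motor neurons arise ventrally under Sonic hedgehog.

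The ID genes are close relatives, so it matters that sequence reads tell them apart. The mouse coding sequence of the end of the helix-loop-helix region is shown for all 4 (GENCODE M21, mm10, sense strand, 5′ to 3′), with capitals marking the 42 of 60 bases that all 4 share. The windows cover coding positions 247 to 306 of Id1, 178 to 237 of Id2, 193 to 252 of Id3 and 265 to 324 of Id4.
Id1: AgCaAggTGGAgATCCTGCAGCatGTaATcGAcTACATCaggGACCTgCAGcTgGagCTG
Id2: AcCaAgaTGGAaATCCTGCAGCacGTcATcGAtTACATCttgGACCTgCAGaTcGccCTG
Id3: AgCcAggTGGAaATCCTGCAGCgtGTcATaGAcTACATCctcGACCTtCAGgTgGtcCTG
Id4: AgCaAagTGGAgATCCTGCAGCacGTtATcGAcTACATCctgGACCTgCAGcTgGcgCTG
Over this window Id2 and Id3 were each 80% identical to Id1, and Id4 was 90% identical. Even so, the longest run of identical bases between any pair of the 4 transcripts was 11 to 17 bases. None of 19 stretches of 50 bases taken from the last 500 bases of each of the 8 mouse transcripts was found in a transcript of another gene, so reads from this end were specific to their gene in mouse. The human transcripts were not compared here.

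In human the genes are spread over the genome, with only ID1 and BMP7 on the same chromosome. There (GRCh38.p14, RefSeq) the gene spans are ID1 chr20:31605289-31606510, ID2 chr2:8682056-8684461, ID3 chr1:23557926-23559501, ID4 chr6:19837370-19842197, SMAD6 chr15:66702236-66782849, SMAD7 chr18:48919853-48950965, BMP7 chr20:57168753-57266641 and BAMBI chr10:28677521-28682932. In mouse (mm10) they are Id1 chr2:152736251-152737410, Id2 chr12:25093799-25097140, Id3 chr4:136143497-136145755, Id4 chr13:48261228-48266026, Smad6 chr9:63953076-64022059, Smad7 chr18:75367529-75395935, Bmp7 chr2:172868012-172940321 and Bambi chr18:3507923-3516404. There Smad7 and Bambi share a chromosome, as do Id1 and Bmp7.

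The tables held 1881 to 2783 cells per library part with 28577630 to 83969715 UMIs (unique molecular identifiers, 1 per captured transcript). After filtering, 1744 to 2521 mouse cells and 1461 to 1927 human cells per part had 7000 UMIs, to which each was thinned before it was classed. COL1A2-positive cells had at least 3 UMIs of COL1A2, a collagen gene of mesenchyme, and STMN2-positive neurons at least 3 of STMN2, a gene of young neurons. Of the remaining cells those with NEUROG2, a proneural factor of cells about to become neurons, were taken next, and then those with SOX2, a progenitor factor, which were split by OLIG2, the factor of motor neuron progenitors. In the order human replicate 1, human replicate 2, mouse replicate 1, mouse replicate 2, which is kept below, this gave 395, 267, 271 and 191 OLIG2-positive progenitors, 313, 198, 462 and 680 OLIG2-negative progenitors, 502, 385, 376 and 372 NEUROG2-positive cells, and 351, 378, 203 and 455 neurons. COL1A2-positive cells numbered 91 and 176 in the human parts and 30 in mouse replicate 2, and mouse replicate 1 had fewer than the 20 needed. In the same order of parts, 275, 57, 432 and 793 cells (14.3%, 3.90%, 24.8% and 31.5%) met no gate. They were left out of the comparisons. A list of 9 neuronal markers summed to 4799 to 12714 CPM (the standard depth-scaled count, taken over the summed UMIs of a class) in neurons and to 58.0 to 272 CPM in the SOX2-positive progenitors. The files of a species were counted on different annotations, and 60 cell barcodes that the human and mouse tables of the mixed library shared were left out. Other pairs of tables shared at most 2 barcodes.

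**Figure D1:**
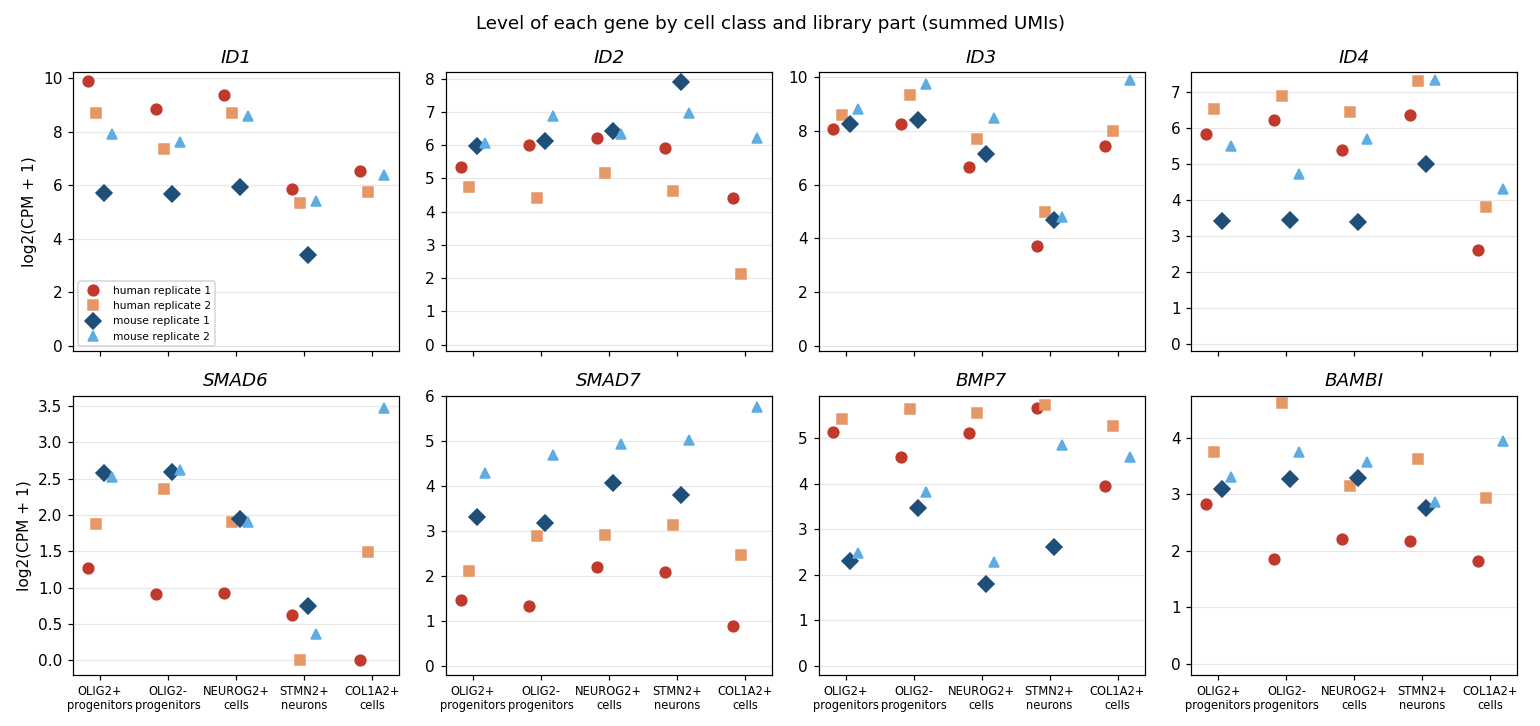
Level of each gene, as log2(CPM + 1) of the summed UMIs, in each cell class (x axis) of each library part (symbols). ID1, ID3 and SMAD6 are lowest or near lowest in STMN2-positive neurons in all 4 parts, BMP7 is higher in the human parts than in the mouse parts in every class shown for all 4 parts, and SMAD7 is higher in mouse.

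Neurons differed from OLIG2-positive progenitors in most of these genes. ID1, ID3 and SMAD6 fell in both species, ID4 rose in both, ID2 and BMP7 rose in mouse, and SMAD7 rose in human. Each change was tested on UMIs summed per class and library part, with the quasi-likelihood test of edgeR and Benjamini-Hochberg adjustment over all 12464 genes, and a gene passed at an adjusted p under 0.05. In human 5 of 8 genes passed, where 44.6% of all genes did (20.5% higher and 24.1% lower), and in mouse 6 of 8 passed, where 51.8% did (24.9% higher and 27% lower). Such counts lie near the background, and the size and direction of each change are therefore given gene by gene.

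ID1 differed widely between library parts. In OLIG2-positive progenitors it reached 959 and 413 CPM in the human parts, and 51.2 and 240.4 CPM in the mouse parts. In neurons the same parts had 56.9, 39.0, 9.53 and 41.8 CPM. Every part was lower in its neurons, by 16.9-fold and 10.6-fold in human and by 5.37-fold and 5.75-fold in mouse, and within each species the ranges of the classes did not overlap. The fitted log2 fold change was -3.82 ± 0.25 (SE, n = 2 parts) in human, with an edgeR adjusted p of 1.3e-07, and -2.74 ± 0.27 in mouse, with 1.6e-06. Over the other settings the mouse value ran from -4.31 to -1.55 and was not called in all of them. Between the species the change differed by -1.08 ± 0.35 (log2, human minus mouse), which just missed the threshold at an edgeR adjusted p of 0.0503. It passed under 8 other settings, with adjusted p from 0.014 to 0.044, and not under the other 5. Among these it was 0.007 (1) with a gate of 10 UMIs and -0.75 (0.2) without human replicate 1.

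ID3 fell most evenly. Its levels were 271, 387, 303 and 448 CPM in OLIG2-positive progenitors, and 12.1, 30.6, 24.5 and 26.9 CPM in their neurons. All neurons lay below all progenitors, and the falls were 22.5-fold, 12.6-fold, 12.4-fold and 16.7-fold. The log2 fold change was -4.07 ± 0.28 in human (edgeR adjusted p = 1.6e-07) and -4.18 ± 0.28 in mouse (1e-07). The species differed in this change by 0.11 ± 0.38 on the log2 scale (edgeR adjusted p = 0.93).

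SMAD6 was sparse, and its fall rests on few molecules. Human replicates 1 and 2 had 8 and 16 UMIs in OLIG2-positive progenitors against 2 and 0 in neurons, and mouse replicates 1 and 2 had 29 and 26 against 2 and 3. Over each species the summed level was 10.5 times higher in progenitors in human (24 UMIs of 11724993 against 2 of 10288488, exact 95% interval 2.61 to 91.9) and 13.2 times higher in mouse (55 of 11312553 against 5 of 13542633, interval 5.31 to 42.2). These intervals, like all intervals given here, cover counting error only. The edgeR adjusted p was 0.0087 in human and 0.00038 in mouse. The human call was lost without human replicate 2 (log2 fold change -1.44), with no replicate block and with a neuron gate of 1 UMI (-0.97, edgeR adjusted p = 0.17). The mouse call was lost without mouse replicate 2 (-3.06).

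ID4 went the other way. Levels in OLIG2-positive progenitors were 56.1, 91.4, 9.61 and 43.9 CPM and those in neurons 81.6, 158, 31.3 and 159 CPM, in the order used above. Each part was higher in its neurons, by 1.45-fold and 1.73-fold in human and 3.26-fold and 3.62-fold in mouse, although the class ranges overlapped in both species because the replicates differed. The log2 fold change was 0.58 ± 0.21 in human (edgeR adjusted p = 0.035) and 1.56 ± 0.23 in mouse (6.5e-05). The mouse value ran from 1.26 to 1.78 over the other settings and was not called in all of them. The difference between the species was -0.98 ± 0.31 (edgeR adjusted p = 0.045), where 16.3% of all genes passed that test and ID4 was the only one of the 8 genes to do so. The human call was lost without human replicate 1 (0.76) or human replicate 2 (0.45), and with no replicate block. It was also lost with a gate of 1 UMI (0.51, edgeR adjusted p = 0.068) and on unthinned gates (0.50, 0.25). The call of the difference was lost without human replicate 1 (-0.85), human replicate 2 (-1.13) or mouse replicate 2 (-0.84), and with no replicate block. A gate of 1 UMI (-0.75, edgeR adjusted p = 0.14), unthinned gates (-1.20, 0.11) and DESeq2's test (-0.98, adjusted p = 0.058) lost it too.

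ID2 rose in mouse neurons. Mouse replicates 1 and 2 had 61.6 and 66.2 CPM in OLIG2-positive progenitors and 240.2 and 124 CPM in neurons, without overlap, a log2 fold change of 1.23 ± 0.32 (edgeR adjusted p = 0.0054). Human replicates 1 and 2 had 39.7 and 25.7 CPM in progenitors and 59.6 and 23.6 CPM in neurons, which overlapped (0.13 ± 0.35, edgeR adjusted p = 0.8). The species difference of -1.09 ± 0.48 did not pass (edgeR adjusted p = 0.14). Without mouse replicate 1 the mouse value was 0.73, and the call was lost there and under another setting.

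The pathway inhibitor SMAD7 and the ligand gene BMP7 were each called higher in neurons of 1 species. SMAD7 had 1.75 and 3.32 CPM in human OLIG2-positive progenitors and 3.22 and 7.77 CPM in neurons (1.02 ± 0.33, edgeR adjusted p = 0.021). The human sums held 5699465 and 6025528 UMIs of all genes in these progenitors and 3727425 and 6561063 in neurons. The human SMAD7 levels therefore rest on few molecules. In mouse SMAD7 had 8.93 and 18.6 against 12.9 and 31.3 CPM (0.42 ± 0.23, edgeR adjusted p = 0.14). All 4 parts were higher in neurons, and the species difference of 0.60 ± 0.40 did not pass (edgeR adjusted p = 0.34). Without human replicate 1 or 2 the human value was 1.20 or 0.78, and on unthinned gates 0.98 (edgeR adjusted p = 0.066). None of these was called, and the human call was also lost with no replicate block.

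BMP7 had 34.0 and 41.5 CPM in human OLIG2-positive progenitors and 49.1 and 52.1 CPM in human neurons, a difference that did not pass (0.33 ± 0.31, edgeR adjusted p = 0.41). In mouse it went from 3.95 and 4.56 CPM to 5.10 and 27.9 CPM (1.72 ± 0.42, edgeR adjusted p = 0.0034). The mouse increase came from mouse replicate 2, where it was 6.13-fold, and without that part the value was 0.13 (adjusted p = 0.93), and on unthinned gates 0.94 (0.055). BAMBI had 6.14, 12.4, 7.55 and 8.93 CPM in progenitors and 3.49, 11.4, 5.78 and 6.32 CPM in neurons. All 4 parts were lower in neurons, but neither species passed (-0.48 ± 0.35 and -0.72 ± 0.35, edgeR adjusted p = 0.29 and 0.1).

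**Figure D2:**
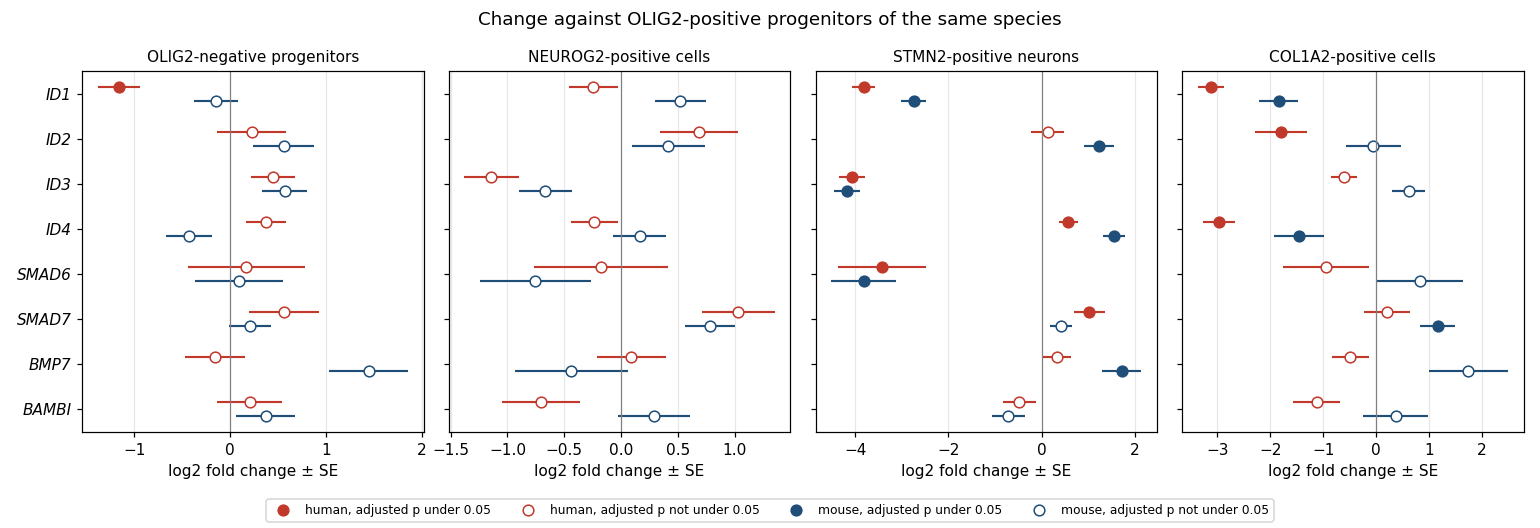
Log2 fold change of each gene against OLIG2-positive progenitors of the same species (x axis, bars are ± SE from the edgeR fit), with 1 panel per cell class, human in red and mouse in blue, and filled points for adjusted p under 0.05. ID1, ID3 and SMAD6 lie furthest below 0 in neurons, SMAD6 with the widest errors, and ID1 and ID4 are the genes called lower in COL1A2-positive cells of both species.

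Within the neurons the levels were also set out by STMN2 UMIs per thinned cell, in classes of 3 to 9, 10 to 29 and 30 or more. This split was chosen after the data had been seen and is given as a description, with no test. ID1 in human replicate 1 was 135, 35.0 and 27.2 CPM from the lowest to the highest class, in human replicate 2 it was 75.0, 36.9 and 26.3, and in mouse replicate 2 it was 214, 14.3 and 1.23. ID3 in the same parts was 27.4, 8.74 and 4.95, then 92.5, 23.3 and 13.5, then 62.0, 24.3 and 4.91 CPM. Both genes were thus lower at each step in these 3 parts.

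ID4 ran opposite, at 18.6, 59.3 and 158 CPM in human replicate 1, 44.8, 141 and 230.3 in human replicate 2, and 16.6, 182 and 189 in mouse replicate 2. In the lowest STMN2 class these 3 parts were thus below their own OLIG2-positive progenitors (56.1, 91.4 and 43.9 CPM), and in the middle class above them. Mouse replicate 1 had only 3 cells in the highest class. Its ID4 was 22.7 and 34.8 CPM in the lower classes, its ID1 11.0 and 8.70 CPM, and its ID3 19.6 and 29.2 CPM, so ID3 was not lower there. ID2 had its highest value in the lowest STMN2 class in human (97.5, 69.9 and 17.3 CPM in replicate 1, and 33.1, 27.1 and 14.8 CPM in replicate 2) and in the middle class in mouse (126 and 337 CPM in replicate 1, and 123, 136 and 70.5 CPM in replicate 2). BMP7 was higher with each STMN2 class in human replicate 1 (31.8, 47.4 and 64.3 CPM), human replicate 2 (39.9, 46.0 and 65.6 CPM) and mouse replicate 2 (5.12, 27.9 and 49.7 CPM).

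**Figure D3:**
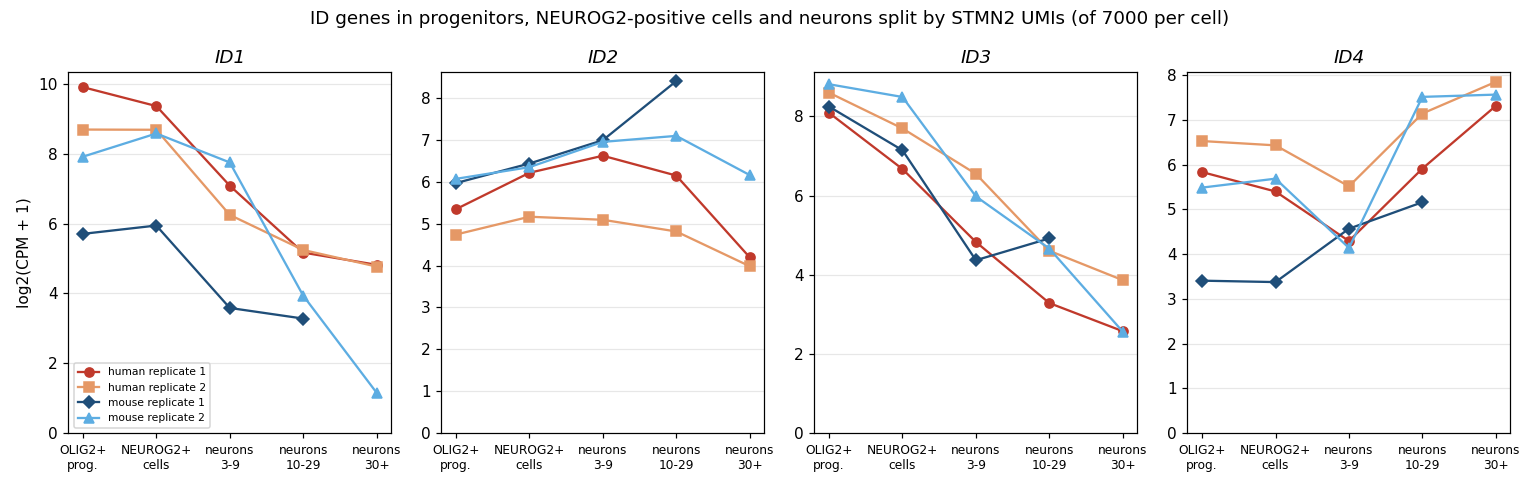
Level of the ID genes, as log2(CPM + 1), in OLIG2-positive progenitors, NEUROG2-positive cells and neurons with 3 to 9, 10 to 29 and 30 or more STMN2 UMIs (x axis), with 1 line per library part. ID1 and ID3 are lower across the neuron classes in both human parts and mouse replicate 2, while ID4 in the same parts is lowest in the first of the neuron classes and higher after it, from 18.6 to 158 CPM across the neuron classes of human replicate 1.

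A second split took neurons with a UMI of ISL1 or MNX1, factors of motor neurons, apart from those without, again after the data had been seen. ID4 was higher with these factors in human replicate 1 (118 against 52.3 CPM) and human replicate 2 (177 against 98.1 CPM), and lower with them in mouse replicate 1 (10.9 against 49.1 CPM) and mouse replicate 2 (153 against 169.8 CPM). ID1 was lower with these factors in all 4 parts, at 23.5 against 83.7, 33.8 against 55.4, 6.56 against 12.1 and 29.9 against 63.6 CPM. The ID4 split thus had opposite signs in the species, and the difference was not tested.

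OLIG2-negative progenitors had no UMI of OLIG2 after thinning, which does not show that they lacked it. In their unthinned sums OLIG2 was 29.6 to 35.6 CPM in human and 10.9 to 33.1 CPM in mouse. In OLIG2-positive progenitors it was 298 to 320 CPM in human and 199 to 237 CPM in mouse. The effect of such missed OLIG2 on the differences below was not tested. Of the 8 genes only human ID1 was called different between these classes with edgeR. It measured 959 and 413 CPM in OLIG2-positive and 457 and 164 CPM in OLIG2-negative progenitors of human replicates 1 and 2, so it was lower in both parts by 2.10-fold and 2.52-fold, although the ranges of the classes met. The log2 fold change was -1.16 ± 0.22 (edgeR adjusted p = 0.046), which made it 1 of 8 genes called in human, where 0.273% of all genes passed. The call was lost without human replicate 1 (-1.41) or human replicate 2 (-0.96). It was also lost with a gate of 10 UMIs (-1.24, edgeR adjusted p = 0.13), on unthinned gates (-1.06, 0.23) and with no replicate block (-1.08). In mouse ID1 was 51.2 and 240.4 against 50.3 and 193 CPM (-0.15 ± 0.23), and the species difference of -1.01 ± 0.32 did not pass (edgeR adjusted p = 0.73). In mouse none of the 8 genes passed with edgeR, where 0.0642% of all genes did, but 2 did at an unadjusted p under 0.05, and none with DESeq2.

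Of these, BMP7 had 3.95 and 4.56 CPM in OLIG2-positive and 9.95 and 13.1 CPM in OLIG2-negative mouse progenitors, without overlap (1.45 ± 0.41, edgeR adjusted p = 0.27). ID3 was higher in OLIG2-negative progenitors in all 4 parts, at 306, 641, 338 and 855 CPM against 271, 387, 303 and 448 CPM, but neither species passed (0.45 ± 0.23 and 0.57 ± 0.23, edgeR adjusted p = 0.65 in both). ID2, ID4, SMAD6, SMAD7 and BAMBI passed in neither species, with edgeR adjusted p of 0.68 to 1. In OLIG2-negative progenitors ID2 was 63.3, 20.2, 68.7 and 116 CPM, ID4 72.9, 118, 9.86 and 25.2 CPM, and SMAD7 1.53, 6.44, 8.09 and 24.8 CPM. SMAD6 was 0.88, 4.14, 5.02 and 5.16 CPM and BAMBI 2.63, 23.5, 8.65 and 12.5 CPM. The difference between species passed for none of the 8 genes, where 0.0401% of all genes passed with edgeR. There 3 of them were under 0.05 by unadjusted p, and none passed with DESeq2.

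Besides cells in which OLIG2 may have been missed, the OLIG2-negative class held other markers in human. Epithelial markers (KRT8, KRT18, KRT19, EPCAM, CDH1, SOX17 and FOXA2) summed to 167 and 485 CPM there against 67.0 and 77.0 CPM in OLIG2-positive progenitors, and mesenchyme markers to 343 against 38.0 CPM in human replicate 2. Their part in the ID1 difference was not tested. In OLIG2-negative cells with at least 2 UMIs of KRT8 and KRT18 together, ID1 was 241 and 81.5 CPM in human replicates 1 and 2, and in those with fewer it was 518 and 195 CPM. ID3 went the other way, at 433 and 939 CPM with the keratins and 271 and 527 CPM without. The dorsal factors PAX3 or PAX7 were found in 1, 6, 1 and 19 of the OLIG2-negative progenitors, too few for sums of their own.

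Cycling, by a UMI of MKI67 or TOP2A, was set beside ID1 in OLIG2-positive progenitors as a description chosen after the data had been seen. ID1 was 1005 and 481 CPM in cycling and 892 and 309 CPM in other cells of human replicates 1 and 2. In mouse replicates 1 and 2 it was 45.8 and 209.7 CPM in cycling and 64.9 and 353 CPM in other cells. The sign was thus opposite in the species, and this difference was not tested.

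The class of NEUROG2-positive cells was taken before the SOX2 gate. In the order used above, 412 of 502, 343 of 385, 232 of 376 and 216 of 372 of its cells also had SOX2. It is thus largely a class of SOX2-positive cells, more so in human. None of the 8 genes passed there against OLIG2-positive progenitors with edgeR in either species, where 0.257% of all genes passed in human and 0.61% in mouse. At an unadjusted p under 0.05 there were 2 genes in human and 3 in mouse, and DESeq2 called 1 in human and none in mouse. ID3 was nearest the threshold, with 101, 206, 140.5 and 358 CPM in the same order, against 271, 387, 303 and 448 CPM in OLIG2-positive progenitors. It was lower in all 4 parts and did not overlap in human (-1.14 ± 0.24, edgeR adjusted p = 0.082, and -0.67 ± 0.24, 0.44, in mouse). The human difference passed under 6 other settings, with adjusted p from 0.0022 to 0.03, and not under the other 7, among them without human replicate 1 (-0.88, 1) or human replicate 2 (-1.41, 0.77).

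ID1 was 658, 411, 60.5 and 382 CPM, lower than in OLIG2-positive progenitors in human replicate 1, level in human replicate 2 (413 CPM there) and higher in both mouse parts, and passed in neither species (-0.24 ± 0.22 in human, edgeR adjusted p = 1, and 0.52 ± 0.23 in mouse, 0.7). With only the classes compared the mouse value was 0.55 (0.035). SMAD7 was higher in all 4 parts, at 3.62, 6.55, 15.6 and 29.6 CPM against 1.75, 3.32, 8.93 and 18.6 CPM, without passing (1.03 ± 0.32, edgeR adjusted p = 0.39, and 0.78 ± 0.22, 0.19). ID2 was 73.2, 34.9, 85.5 and 80.5 CPM, ID4 41.3, 85.5, 9.38 and 50.6 CPM, and BMP7 33.6, 46.1, 2.45 and 3.83 CPM. SMAD6 was 0.90, 2.74, 2.86 and 2.73 CPM and BAMBI 3.62, 7.86, 8.84 and 10.9 CPM. No gene passed in the test of a difference between species with edgeR, of the 8 or of all genes (0%), while 1 of the 8 was under 0.05 by unadjusted p and none passed with DESeq2.

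COL1A2-positive cells had less ID1 and ID4 than OLIG2-positive progenitors in both species, while ID3 passed in neither. A list of 9 mesenchyme markers summed to 1365, 2787 and 9953 CPM there in human replicates 1 and 2 and mouse replicate 2, while 8 progenitor markers summed to 4934, 8512 and 3471 CPM, more than the mesenchyme list in both human parts. The class is therefore called by its gate and not by a cell type. Of the 8 genes 3 passed in human, where 22.3% of all genes did, and 3 in mouse, where 32.4% did. With no replicate block all of these calls were lost in both species, besides the losses named gene by gene below. The mouse values rest on 30 cells of 1 library part. For every SE and p that involves it, that single sum is assumed to vary like the other groups, and no spread was measured for it. The median over all genes was itself shifted to -0.23 there with edgeR's normalization and to 0.11 with DESeq2's test.

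ID1 was 92.0, 53.3 and 82.0 CPM in COL1A2-positive cells of human replicates 1 and 2 and mouse replicate 2, against 959, 413 and 240.4 CPM in their OLIG2-positive progenitors. It was lower in all 3 parts (-3.12 ± 0.25 in human, edgeR adjusted p = 1.8e-06, and -1.84 ± 0.37 in mouse, 0.0016), and the mouse call was lost with gates on unthinned cells (-0.38, 0.57). ID4 was 5.06, 13.0 and 18.7 CPM against 56.1, 91.4 and 43.9 CPM, lower in all 3 parts (-2.97 ± 0.30, edgeR adjusted p = 1.1e-05, and -1.46 ± 0.48, 0.029), and the mouse call was lost without human replicate 1 (-1.40, 0.093). ID2 was 20.3, 3.33 and 73.4 CPM, which passed in human (-1.80 ± 0.49, edgeR adjusted p = 0.018) but not without human replicate 1 (-2.96, 0.056) or human replicate 2 (-0.83, 0.56), or with a gate of 10 UMIs (-1.48, 0.55).

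ID3 was 171 and 255 CPM in the human parts and 947 CPM in mouse replicate 2, against 271, 387 and 448 CPM in OLIG2-positive progenitors. It was thus lower in both human parts and higher in the mouse part, and neither change passed (-0.60 ± 0.25, edgeR adjusted p = 0.094, and 0.61 ± 0.30, 0.15). The mouse value was 0.88 (0.021) without mouse replicate 1 and the human value -0.90 (0.017) on unthinned gates. The difference between the species, again with 1 mouse sum, did pass (-1.22 ± 0.39, edgeR adjusted p = 0.048), the only one of the 8 genes to do so, where 15.8% of all genes did. It was lost without human replicate 1 (-1.29) or human replicate 2 (-0.98). It was also lost with doublets kept (-1.0), a gate of 1 UMI (-0.96), unthinned gates (-0.95) or no replicate block. SMAD7 was 0.84, 4.54 and 53.2 CPM, a rise called in mouse (1.17 ± 0.33, edgeR adjusted p = 0.015) that was lost with a gate of 1 UMI (0.58, 0.2) or on unthinned cells (0.74, 0.14). BMP7 was 14.4, 37.2 and 23.0 CPM, SMAD6 0, 1.82 and 10.1 CPM and BAMBI 2.53, 6.66 and 14.4 CPM, and none of these passed. Handling-stress genes such as FOS and EGR1 summed to 1511, 1217 and 2667 CPM in COL1A2-positive cells against 1165, 791 and 155 CPM in OLIG2-positive progenitors, and their part in these results was not tested.

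Put in order, ID1 in human ran from OLIG2-positive progenitors (686 ± 386 CPM, SD, n = 2) through NEUROG2-positive cells (534 ± 175) and OLIG2-negative progenitors (311 ± 208) to COL1A2-positive cells (72.6 ± 27.4) and neurons (47.9 ± 12.6). Only the step from OLIG2-negative progenitors to COL1A2-positive cells was free of overlap. In mouse the order opened with NEUROG2-positive cells (221 ± 227), and the ranges of the classes above neurons met. For ID3 neurons were lowest in both species, with no overlap with the next class. For ID2 mouse neurons were the highest class without overlap, and for ID4 human COL1A2-positive cells were the lowest without overlap.

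Between human and mouse, BMP7 and SMAD7 were called in more classes than the other 6 genes. The species were compared class by class with the same test, in a fit without a replicate block. That fit held the sums of all classes and no term for the library part. Classes of 1 library thus counted as independent sums, and the p-values do not allow for what they share. Each such difference also holds the different genomes, annotations and capture of the transcripts. In OLIG2-positive progenitors 2 of 8 genes passed, where 31.3% of all genes did. Of the OLIG2-negative progenitors 1 of 8 passed (34.8% of all genes), of NEUROG2-positive cells 2 of 8 (33.7%), of neurons 2 of 8 (29.7%) and of COL1A2-positive cells 2 of 8 (15.5%). In OLIG2-positive progenitors the stress list summed to 1165, 791, 511 and 155 CPM in the 4 parts, and its part was not tested.

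BMP7 was higher in human. In OLIG2-positive progenitors the human parts had 34.0 and 41.5 CPM and the mouse parts 3.95 and 4.56 CPM, without overlap, a log2 difference of 2.94 ± 0.56 (edgeR adjusted p = 0.0021). Within the mixed library, where both species shared 1 preparation, human was 8.62-fold higher, and between the second libraries 9.11-fold. In NEUROG2-positive cells the folds were 13.7 and 12 (3.43 ± 0.57, edgeR adjusted p = 0.00079). In OLIG2-negative progenitors they were 2.29 and 3.69 (1.34 ± 0.52, 0.06), and in neurons 9.62 and 1.87 (1.57 ± 0.52, 0.038), where the call was lost without human replicate 1 (1.57, 0.15), human replicate 2 (1.77, 0.12) or mouse replicate 1 (0.93, 0.17). In COL1A2-positive cells the difference was 0.34 ± 0.71 (0.8).

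SMAD7 was higher in mouse in every class. In OLIG2-positive progenitors the human parts had 1.75 and 3.32 CPM and the mouse parts 8.93 and 18.6 CPM, without overlap (log2 difference -2.63 ± 0.70, human minus mouse, edgeR adjusted p = 0.013). The human levels rest on few molecules. Mouse was 5.09-fold higher within the mixed library and 5.60-fold between the second libraries. The folds were 5.28 and 3.85 in OLIG2-negative progenitors (edgeR adjusted p = 0.019), 4.32 and 4.52 in NEUROG2-positive cells (0.016) and 4.02 and 4.03 in neurons (0.035), and 11.7 in COL1A2-positive cells of the second libraries (0.0091). The call in OLIG2-positive progenitors was lost without human replicate 1 (-2.26, adjusted p = 0.1), human replicate 2 (-2.87, 0.076) or mouse replicate 2 (-2.0, 0.12). Without the same parts the difference was -1.64, -3.34 and -1.36 in OLIG2-negative progenitors, -2.01, -2.62 and -1.84 in NEUROG2-positive cells, and -1.58, -2.57 and -1.23 in neurons, with no adjusted p under 0.052, and in COL1A2-positive cells it was -3.48 (0.068) and -5.25 (0.075) without human replicate 1 and 2.

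ID1 was higher in human OLIG2-positive progenitors by 18.7-fold within the mixed library and by 1.72-fold between the second libraries, and did not pass (2.16 ± 1.03, edgeR adjusted p = 0.13). Mouse replicate 1 had the lowest ID1 of the 4 parts in progenitors, NEUROG2-positive cells and neurons, at 51.2, 60.5 and 9.53 CPM, against 240.4, 382 and 41.8 CPM in mouse replicate 2. ID4 behaved alike, at 5.84-fold and 2.08-fold in OLIG2-positive progenitors (1.29 ± 0.81, 0.25) and at 2.22 ± 0.83 in OLIG2-negative progenitors (0.054). ID3 passed in COL1A2-positive cells alone, where 2 human sums stood against 1 mouse sum (-1.95 ± 0.55, edgeR adjusted p = 0.03), a call that was lost without human replicate 1 (-1.83, 0.13) or human replicate 2 (-1.76, 0.18) and under 4 other settings (-1.94 to -1.66, 0.051 to 0.078).

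ID2, SMAD6 and BAMBI passed in no class between the species. ID2 was 4.03-fold higher in mouse neurons within the mixed library and 5.24-fold between the second libraries, without overlap (-2.17 ± 0.87, edgeR adjusted p = 0.079). The difference passed under 3 of 13 other settings, without human replicate 1 (-3.04, 0.012), with a gate of 10 UMIs (-2.75, 0.022) and with a replicate block (-2.23, 0.0095), and was smallest without human replicate 2 (-1.44, 0.093). SMAD6 was 3.55-fold and 1.78-fold higher in mouse OLIG2-positive progenitors (-1.49 ± 0.83, 0.19). BAMBI had opposite signs in the pairs, being 1.23-fold higher in mouse within the mixed library and 1.39-fold higher in human between the second libraries (-0.07 ± 0.67, 0.96).

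How many cells carried the transcripts was counted in cells thinned to 7000 UMIs. ID1 was found in 86.3%, 71.2%, 24.0% and 51.3% of OLIG2-positive progenitors and in 15.4%, 19.8%, 6.40% and 9.45% of neurons. ID3 was found in 58.2%, 71.5%, 67.5% and 67.0% of these progenitors and in 5.98%, 15.6%, 11.3% and 11.0% of neurons. For both genes the exact 95% intervals of progenitors and neurons were apart in every part, as for ID1 in mouse replicate 1 (19.0% to 29.5% against 3.45% to 10.7%).

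Gates on unthinned cells, shallower ones included, gave another set of 560, 528, 265 and 523 neurons. In their unthinned counts the shares were 21.1%, 34.3%, 12.5% and 18.5% for ID1 and 8.20%, 29.5%, 19.6% and 23.5% for ID3. Free RNA in droplets can give such UMIs, and no class is known to lack the ID genes, so background could not be told apart from expression in these shares. Cells of OLIG2-positive progenitors had median depths of 13310, 21917, 20401 and 27645 UMIs before they were thinned, and neurons 9955, 16665.5, 14021 and 22875. ID4 was found in 25.1%, 39.7%, 6.27% and 27.2% of OLIG2-positive progenitors and in 33.6%, 49.7%, 10.3% and 31.2% of neurons. The intervals of the classes overlapped in all 4 parts, as in human replicate 2 (33.8% to 45.8% against 44.6% to 54.9%). ID2 was found in 21.7%, 13.8%, 46.3% and 38.9% of neurons. SMAD6 was found in 0 of the neurons of human replicate 2 and of mouse replicate 1, which allows a share of thinned cells with a UMI of up to 0.794% and 1.48%. It sets no limit on cells that express the gene.

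Fewer progenitors than neurons were without an ID gene. In OLIG2-positive progenitors no ID gene was found in 4.05%, 4.49%, 17.0% and 8.90% of cells and 3 or 4 were found in 21%, 28.1%, 6.64% and 22.5%. In neurons none was found in 41.3%, 29.9%, 40.4% and 29.7% and 3 or 4 in 2.28%, 4.23%, 1.97% and 1.32%. The intervals of the share with no ID gene were apart in every part, the closest being mouse replicate 1 (12.7% to 22.0% against 33.6% to 47.5%). Cells of a part share their library, so these intervals describe the part and not the species.

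**Figure D4:**
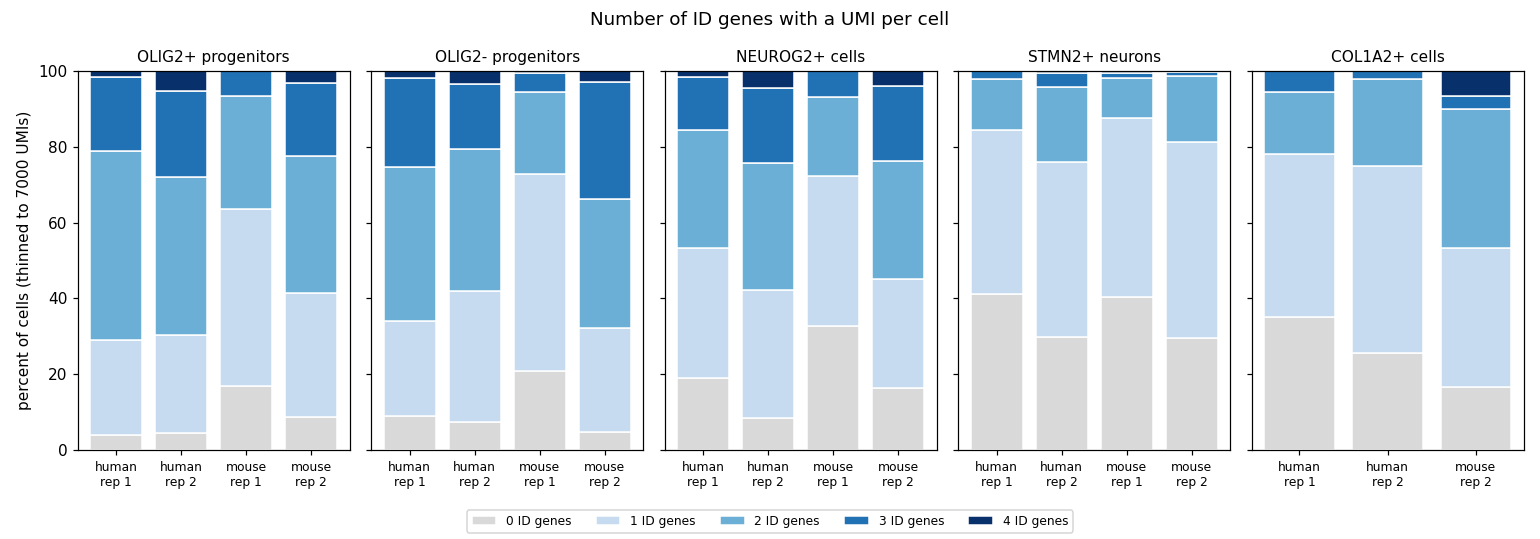
Share of cells (y axis, percent) with UMIs of 0, 1, 2, 3 or 4 of the ID genes after thinning to 7000 UMIs, by cell class (panels) and library part (bars). The share with none is 4.05% to 17.0% in OLIG2-positive progenitors and 29.7% to 41.3% in neurons.

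Co-detection of ID1 and ID3 is given by class, as a description. Among neurons of human replicate 1, 13.0% of 54 cells with ID1 also had ID3, against 4.71% of 297 cells without ID1, and in mouse replicate 2 the shares were 27.9% of 43 and 9.22% of 412. The difference was positive in neurons of all 4 parts, at 8.25, 10.5, 12.6 and 18.7 percentage points, and in NEUROG2-positive cells of all 4, at 14.8, 9.23, 4.13 and 9.73 points. In OLIG2-positive progenitors it was 16.0 points in human replicate 1 and negative in the other 3 parts (-5.32, -5.86 and -3.51 points). The correlation of UMI counts over cells was weak, at 0.32, 0.20, 0.05 and 0.20 in neurons, and is no finding in counts this sparse. ID4 was paired with ID3 in NEUROG2-positive cells in all 4 parts (8.13, 11.1, 11.5 and 12.8 points), while ID2 and ID4 in neurons had no common sign (-7.64, -8.61, 0.55 and -18.7 points).

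The rest of the pathway was described with lists of ligands, receptors, SMADs with their cofactors, secreted antagonists, other target genes and E proteins. In human neurons against OLIG2-positive progenitors 1 of 9 ligands rose and 1 fell (median log2 fold change -0.04, beside -0.03 over all genes), 4 of 11 receptors rose and 2 fell (0.43), 1 of 10 SMADs and cofactors rose and 4 fell (0.03), 1 of 13 antagonists rose and 4 fell (-0.98), 2 of 9 targets rose and 2 fell (-0.02), and 1 of 3 E proteins fell (-0.24). In mouse neurons the counts were 2 and 1 of 9 ligands (0.03), 4 and 2 of 11 receptors (0.00), 1 and 3 of 10 SMADs and cofactors (-0.10), 3 and 3 of 13 antagonists (-0.90), 2 and 4 of 9 targets (0.19) and 0 and 1 of 3 E proteins (-0.29), beside a median of 0.00 over all genes. Over all genes 20.5% passed as higher and 24.1% as lower in human neurons, and 24.9% and 27% in mouse neurons. Genes of the target list moved in both directions, and counts from lists this small are no result about the lists.

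Among those with the largest changes was GATA2, a transcription factor of the target list that also marks interneurons, with 0, 0, 1 and 0 UMIs in OLIG2-positive progenitors and 24, 16, 96 and 78 in neurons. HEY2, a Notch and BMP target that represses neurogenic genes, was lower in neurons, at 17.9, 26.1, 3.95 and 5.83 CPM against 1.88, 3.66, 0 and 0.85 CPM (log2 fold change -3.02 in human and -3.32 in mouse). FST, which binds activins and BMPs, had 24 and 41 UMIs in mouse OLIG2-positive progenitors and none in mouse neurons. CHRD, a secreted antagonist, rose in mouse neurons by 3.54 on the log2 scale, from 3 and 2 UMIs to 17 and 76. SMAD3, a transducer of activin and TGF-beta signals, fell in both species, from 13.0, 16.6, 16.8 and 14.8 CPM to 4.83, 3.51, 3.06 and 2.07 CPM (-1.98 in human and -2.91 in mouse). RGMA, a co-receptor, fell in human neurons (-1.79). The other genes past the threshold with the largest folds rested on at most 12 UMIs in any progenitor part and at most 4 in any neuron part, namely SOSTDC1, GDF10 and SMOC1 in human and BMP6, MSX2 and BMP8B in mouse.

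Some further genes were named after their values had been seen. TCF3 is 1 of the 3 listed E proteins that ID proteins bind, and the only one of them called in neurons. It was lower there, at 40.4, 115, 187 and 157 CPM in OLIG2-positive progenitors and 19.6, 55.9, 108 and 68.6 CPM in neurons (-1.13 and -1.25). GDF11, a ligand of the activin branch, was higher, from 6.67, 42.5, 7.38 and 9.84 CPM to 17.2, 102, 39.1 and 54.6 CPM (1.22 and 2.20). BMPR2, the type II BMP receptor, was higher as well, from 7.37, 14.4, 7.73 and 15.7 CPM to 20.4, 39.8, 13.6 and 38.7 CPM (1.37 and 0.92). Each of these 3 genes passed in both species.

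In OLIG2-negative progenitors no list gene passed in either species with edgeR, where 0.273% of all genes did in human and 0.0642% in mouse. In NEUROG2-positive cells none did in human and 2 did in mouse, GDF11 (0.79) and SKIL, a repressor of SMAD activity (0.79). Over all genes 0.257% passed there in human and 0.61% in mouse. In human COL1A2-positive cells 3 of 9 ligands rose and 1 fell, 3 of 11 receptors rose and 2 fell, none of 10 SMADs and cofactors rose and 1 fell, 4 of 13 antagonists rose and 1 fell, 1 of 9 targets rose and 2 fell, and 2 of 3 E proteins rose, beside 1247 genes that rose and 1534 that fell of all 12464. The list medians were 2.78, -0.16, -0.07, 0.29, 0.03 and 1.11, beside -0.08 over all genes. In mouse 5 ligands, 4 receptors, 2 SMADs and cofactors, 7 antagonists, 2 targets and 2 E proteins rose, and 1 receptor and 1 E protein fell, beside 1941 and 2095 of all genes. The medians there were 5.57, 0.25, -0.07, 2.08, 1.02 and 1.24, beside -0.23. BMP4, a ligand, was 27.8, 36.0 and 14.4 CPM there in human replicates 1 and 2 and mouse replicate 2 (log2 fold change 4.14 in human and 5.10 in mouse), against 0.18, 4.31 and 0 CPM in their OLIG2-positive progenitors. NBL1, an antagonist, was 32.1, 31.5 and 334 CPM. The E protein genes TCF4 (92.8, 169 and 419 CPM) and TCF12 (46.4, 72.9 and 167 CPM) passed in both species. INHBA, which encodes an activin subunit, was 505 CPM in mouse replicate 2, where its OLIG2-positive progenitors had 1 UMI, and 0 and 0.30 CPM in the human parts.

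Genes with the pattern most like each ID gene were sought among 4252 genes, by the lower of the Pearson correlations over 10 human and 9 mouse sums of class by part, each part centred on its mean. These sums share libraries, and the correlations are a description. For ID3 they were SMCO4 (0.98 in human and 0.98 in mouse), YBX3, RCN1, HMGA2 and ZFP36L1. For ID1 they were DBF4 (0.96 and 0.95), GJC1, SNRPG and RRS1, for ID4 RND2 (0.96 and 0.96), COX19, RPRM, AKIRIN1 and CYFIP2, and for ID2, with weaker likeness, TIMM8B (0.91 and 0.87), TTC1, PSMB5, CCDC167 and GTF3C6. Genes were ranked only if their mean was at least 20 CPM in each species, which left out SMAD6, SMAD7, BMP7 and BAMBI. No ID gene was among the 5 genes most like another ID gene.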

How the data were processed

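The deposited values are unnormalized UMI counts, by gene and by cell, which the authors made with Cell Ranger 3.1.0 on hg38 and mm10, per the submitters' processing notes. The annotation was not given in the sources used here. Symbols were upper-cased and matched across species. Cells needed 1000 UMIs, 500 genes and at most 10% mitochondrial UMIs. Scrublet in scanpy 1.11.5 (expected rate 5%) removed 13, 24, 5 and 32 doublets from human replicate 1, human replicate 2, mouse replicate 1 and mouse replicate 2. Gates used cells thinned to 7000 UMIs, and unthinned UMIs of at least 20 gated cells were summed per library part. The main test was edgeR 4.0.16 (TMM, filterByExpr, quasi-likelihood, adjusted p under 0.05), with library part as a block within species. DESeq2 1.42.0 was an alternative. The fits were tested on simulated data for human neurons and human NEUROG2-positive cells. There the share of false calls was above the threshold, and part of the true changes was missed. The members and lists were chosen with earlier results of these data known. The rule named all 8 genes, and of the lists the genes with the 8 largest folds past the threshold in neurons, with examples elsewhere; some items are not reported here. A planned comparison of dorsal progenitors was not run, because the thinned gates left too few of them in every part. Shares have exact Clopper-Pearson 95% intervals, and the limit for a count of 0 is 3 cells.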

Additional observations from a re-analysis of the deposited data

Results flagged for a closer look

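For 2 results the change differed between the species by a test of the difference itself. ID4 rose less from OLIG2-positive progenitors to neurons in human than in mouse, by -0.98 on the log2 scale (human minus mouse). ID3 in COL1A2-positive cells, against OLIG2-positive progenitors, differed by -1.22, with a lower level in both human parts and a higher one in the single mouse part. The mouse arm of the latter is 1 sum of 30 cells, which is assumed to vary like the other groups. Both calls were lost when single human replicates were left out, and with no replicate block.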

How the results depend on the processing

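Of 136 results for single genes 29 passed the threshold. All 365 alternative values of these kept their sign and 288 still passed. Of 1353 alternative values of results that had not passed, 77 did, and 72 had another sign, none of them past the threshold. The counts of the 8 genes that passed moved as follows. In OLIG2-negative against OLIG2-positive human progenitors the count of 1 became 0 with a gate of 10 UMIs, with unthinned gates and with no replicate block, and 0 to 1 when single parts were left out; in mouse 0 became 1 when only the classes compared were fitted. In NEUROG2-positive human cells 0 became 1 with a gate of 1 UMI, with DESeq2's test and with no filter, 2 with only the classes compared, and 0 to 1 without single parts, and in mouse 0 became 3 with only the classes compared. In human neurons 5 became 3 with a gate of 1 UMI and on unthinned gates, 2 with no replicate block, and 2 to 5 without single parts. In mouse neurons 6 became 3 with no replicate block and 4 to 7 without single parts. The species difference in neurons went from 1 to 2 with a gate of 10 UMIs, doublets kept, DESeq2's size factors, no filter or only the classes compared, to 0 with no replicate block, and to 0 to 2 without single parts. In human COL1A2-positive cells 3 became 0 with no replicate block and 2 to 4 without single parts. In mouse 3 became 1 on unthinned gates, 5 with only the classes compared, 0 with no replicate block, and 2 to 5 without single parts. The species difference there went from 1 to 3 with a gate of 1 UMI, DESeq2's test or only the classes compared, to 2 on unthinned gates or with no filter, to 0 with doublets kept or no replicate block, and to 0 to 2 without single parts. Between human and mouse OLIG2-positive progenitors 2 became 3 with a replicate block and 1 to 2 without single parts. In OLIG2-negative progenitors 1 became 3 with a gate of 1 UMI, DESeq2's size factors or its test, 2 with a gate of 10 UMIs, no filter or only the classes compared, 4 with a replicate block, and 1 to 2 without single parts. In NEUROG2-positive cells 2 became 3 with a replicate block and 1 to 2 without single parts, and in neurons 0 with only the classes compared, 3 with a replicate block and 0 to 2 without single parts. In COL1A2-positive cells 2 became 1 with doublets kept or only the classes compared, 3 with a replicate block, and 0 to 2 without single parts. The causes were not tested. COL1A2-positive mouse cells gave no value with a gate of 10 UMIs or without mouse replicate 2.

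The replicate number 1 stands for the mixed library and number 2 only names a sample. Deviations of parts with the same number correlated across genes at 0.30, 0.22, 0.31 and 0.37 in OLIG2-positive progenitors, OLIG2-negative progenitors, NEUROG2-positive cells and neurons. With 2 pairs the replicate block is a hint only. Over all settings the count of all genes that passed ranged from 1903 to 5826 in human neurons (5558 as reported) and 2658 to 6742 in mouse neurons (6461), from 105 to 2472 for their difference (2037), 543 to 2879 in human COL1A2-positive cells (2781), 1651 to 4149 in mouse (4036) and 332 to 2104 for their difference (1971). It ranged from 0 to 113 (34) and 0 to 97 (8) in OLIG2-negative progenitors and from 0 to 389 (32), 0 to 405 (76) and 0 to 52 (0) in NEUROG2-positive cells. Between species it ranged from 2366 to 5869 (3904), 2608 to 6338 (4343), 2502 to 6225 (4201), 1842 to 5655 (3706) and 837 to 3184 (1929). DESeq2's size factors changed the split of higher and lower genes between species in OLIG2-negative progenitors from 2234 and 2109 to 2577 and 1606, and DESeq2's test that in mouse COL1A2-positive cells from 1941 and 2095 to 2017 and 1296. The median difference of all genes between species moved from -0.02 to 0.10, from -0.03 to 0.18, from -0.03 to 0.13 and from -0.09 to 0.03 in the first 4 classes with these size factors. Depth limits SMAD6 most, with 0 to 3 UMIs per part in neurons.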
